A study of Mus musculus with 14 samples.

Results

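Lysosomal hydrolases, cathepsins and membrane proteins were followed through sorted bone marrow cells of young and old mice with and without a tumour. The set was chosen by name, with earlier results of these data known, so its shares beside all genes are descriptions. It held 39 genes, and 37 of them had an array probe annotated to that gene alone. Atp6v0c, a proteolipid subunit of the proton pump, had no such probe, and the probe of Glb1, beta-galactosidase, was annotated together with Tmppe and was left out. Of the 37, 36 were bright enough to be tested, among 13805 tested genes of 22180 genes with a probe of their own. The exception was Ctsk, the collagen-degrading cathepsin of osteoclasts, whose group means lay below the floor of 3.88: 2.54 without and 2.82 with a tumour in young mice, 2.74 without and 2.89 with a tumour in old mice. All values are on the log2 scale, where a difference of 1 is a doubling of the signal, and the floor is the median of all deposited values. A gene was tested if it exceeded the floor on at least 3 arrays.

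Every mouse was a female NCR-NU (nude) mouse, an athymic strain that lacks most mature T cells but keeps B cells, natural killer cells and myeloid cells. Bone marrow cells that carried Sca1 and lacked Kit were sorted by flow cytometry. The 4 groups were 3 young cancer-free mice given Matrigel, 3 young tumour-bearing mice, 5 old cancer-free mice given Matrigel and 3 old tumour-bearing mice, with primary tumours matched in size. The labels give age only as young or old, call each array a biological replicate from a mouse, and do not name the tumour. The comparisons address how a tumour and how age alter the RNA of these cells, which are a mixture, so that fewer cells of a type and less RNA per cell cannot be told apart.

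Lysosomes are acidic organelles in which proteins, glycans, lipids and nucleic acids are broken down. A vacuolar proton pump keeps the lumen acidic, and the acid activates the hydrolases, many of which are made as inactive precursors. Heavily glycosylated membrane proteins such as LAMP1 and LAMP2 line the organelle, and channels such as mucolipin 1 (Mcoln1) release calcium from it. Phagocytes and antigen-presenting cells hold many lysosomes, and cytotoxic lymphocytes and neutrophils store related proteases in granules.

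Many lysosomal genes carry a CLEAR element, which is bound by transcription factors of the TFEB family and has the E-box CACGTG at its core. RefSeq promoter windows (GRCm38.p6, 250 bases before to 50 after the gene start) were matched by symbol for 31 of the 39 genes. The palindrome CACGTG, which reads the same on both strands, occurred in 12 of these 31 genes (38.7%), against 8.09% of the 27025 genes with a window. The 7 letters TCACGTG, searched on both strands and always overlapping CACGTG, occurred in 10 of the 31 (32.3%) against 4.29% of all genes. The 12 genes were Atp6v0d1, Atp6v1a, Ctsa, Ctsd, Ctsf, Ctsl, Gaa, Glb1, Lamp1, Lgmn, Mcoln1 and Naglu, and 4 of them held more than 1 copy. The nearest copy lay 3 to 236 bases from the start, within 100 bases in 9 of the 12. Genes without a window were Ctsb, Ctsh, Ctsw, Galns, Asah1, Npc1, Atp6v1b2 and Atp6v1h. A match is a string of letters and not a measured binding site.

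Sequences are shown for the 2 genes whose tumour-bearing and cancer-free groups did not overlap in old mice (Lgmn and Gaa), for a cathepsin and a pump subunit described below (Ctsl and Atp6v0d1), and for Lamp1, the steadiest member. Each reads 5′ to 3′ on the strand of the gene, with the E-box in capitals.
Lgmn, 30 bases around the E-box at the second of its 2 RefSeq starts, chr12:102439124-102439153, minus strand: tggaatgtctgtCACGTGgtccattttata
Lgmn, the 250 bases before its other start, chr12:102439729-102439978, minus strand, with no E-box: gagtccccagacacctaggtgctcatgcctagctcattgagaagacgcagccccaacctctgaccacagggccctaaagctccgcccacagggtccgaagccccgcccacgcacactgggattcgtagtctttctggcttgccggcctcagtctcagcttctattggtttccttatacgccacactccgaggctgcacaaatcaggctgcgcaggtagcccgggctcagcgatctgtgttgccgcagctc
Gaa, the 250 bases before its start, chr11:119267713-119267962, plus strand: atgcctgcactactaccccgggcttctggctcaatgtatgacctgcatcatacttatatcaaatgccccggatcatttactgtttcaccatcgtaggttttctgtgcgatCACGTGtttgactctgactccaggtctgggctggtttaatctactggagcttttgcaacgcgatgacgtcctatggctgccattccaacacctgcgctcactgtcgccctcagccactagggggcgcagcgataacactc
Ctsl, chr13:64370739-64370768, minus strand: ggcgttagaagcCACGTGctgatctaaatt
Atp6v0d1, chr8:105566050-105566079, minus strand: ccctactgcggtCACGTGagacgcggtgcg
Lamp1, chr8:13159088-13159160, plus strand, with 4 copies: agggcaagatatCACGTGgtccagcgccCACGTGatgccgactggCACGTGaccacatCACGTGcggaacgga

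Array medians lay between 3.81 and 3.93. In cancer-free mice they were 3.81 to 3.85 in young and 3.87 to 3.93 in old mice, without overlap. With a tumour they were 3.83 to 3.88 in young and 3.89 to 3.92 in old mice, also without overlap. The mean correlation of an array with the rest ran from 0.908 in young tumour-bearing replicate 1, followed by old tumour-bearing replicates 3 and 2 (both 0.912), to 0.941 in young cancer-free replicate 1. No pair of arrays correlated above 0.963, so no array held a copy of another's values. Kit lay between 5.25 and 7.03 and the blood cell marker Ptprc (CD45) between 10.53 and 11.36 on all arrays. Ly6a, which encodes Sca1, was not analysed here. The number of arrays limits the precision.

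No member passed the test in any of the 7 contrasts, at an adjusted p under 0.05 in limma with Benjamini-Hochberg adjustment over all 13805 genes. The share of all tested genes that passed was 0% in every contrast except the average age effect, where 12 genes (0.0869%) passed. At an unadjusted p under 0.05, the members stood near the share of all genes: 1 of 36 (2.78%, all genes 5.40%) for tumour in young mice, 4 of 36 (11.1%, all genes 9.76%) for tumour in old mice, 3 of 36 (8.33%, all genes 7.66%) for age without a tumour and 4 of 36 (11.1%, all genes 10.1%) for age with one. The averages gave 4 of 36 (11.1%, all genes 10.2%) for tumour and 2 of 36 (5.56%, all genes 13.4%) for age. The values that follow are therefore measured differences with their errors, and none of them is a call.

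**Figure D1:**
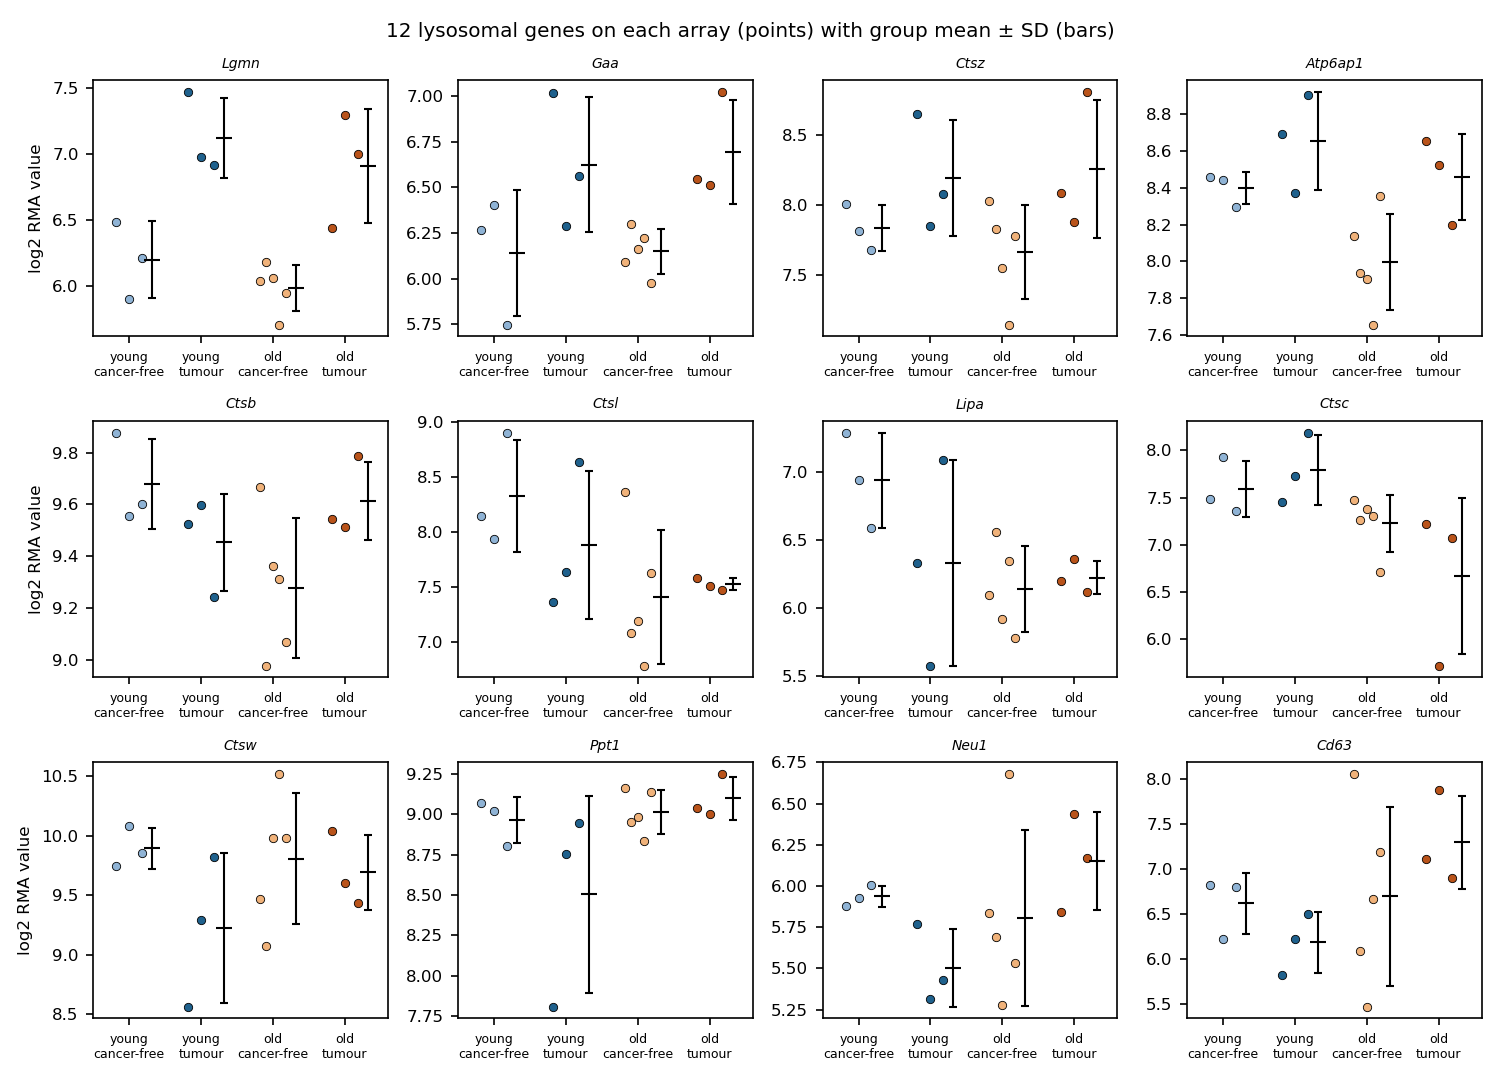
Log2 values of 12 members on each array, 1 panel a gene, for the 4 groups (points are mice, bars are the group mean ± SD, and each vertical axis has its own range). In the panel of Lgmn, both tumour-bearing groups lie above the cancer-free group of the same age, while the groups of most other panels overlap.

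Among the cysteine proteases, Lgmn had the largest tumour difference at either age. It encodes legumain, an asparaginyl endopeptidase that processes cathepsins and antigens in the lysosome. Its values were 6.48, 5.90 and 6.21 in young cancer-free mice and 7.47, 6.98 and 6.92 in young tumour-bearing mice. In old mice they were 6.03, 6.18, 6.06, 5.70 and 5.94 without and 6.44, 7.29 and 7.00 with a tumour. At either age the lowest tumour-bearing mouse lay above the highest cancer-free one. The difference was 0.93 ± 0.24 (SE; 1.90-fold, 95% interval 0.40 to 1.45, limma adjusted p = 0.886) in young mice. In old mice it was 0.93 ± 0.22 (1.90-fold, 95% interval 0.46 to 1.40, adjusted p = 0.223). Averaged over the ages it was 0.93 ± 0.16 (adjusted p = 0.268), and Lgmn had the smallest p of all 13805 genes in that contrast. That p did not pass, and over the alternatives the average difference lay between 0.70 and 1.05 with adjusted p between 0.0842 and 0.855. Separation upward with tumour at both ages was met by 1 of the 36 members (2.78%) and by 35 of all tested genes (0.254%). The tumour effects at the 2 ages differed by 0.002 ± 0.33 (95% interval -0.70 to 0.71, adjusted p = 0.999).

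Ctsz and Gaa also had higher means in tumour-bearing mice of both ages. Gaa, acid alpha-glucosidase, frees glucose from glycogen in the lysosome. Its values in old mice were 6.09, 6.30, 6.16, 6.22 and 5.98 without and 6.54, 6.52 and 7.03 with a tumour, and these groups did not overlap. Young mice gave 6.27, 6.40 and 5.75 without and 7.02, 6.29 and 6.56 with a tumour, and here the groups overlapped. The difference was 0.55 ± 0.21 (adjusted p = 0.448) in old mice and 0.48 ± 0.23 (adjusted p = 0.886) in young mice. The latter came to 0.29 without young tumour-bearing replicate 1 and to 0.29 without young cancer-free replicate 3. Averaged over the ages the difference was 0.52 ± 0.16 (adjusted p = 0.370).

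Ctsz encodes cathepsin Z, a carboxypeptidase of the cathepsin family found in myeloid cells. In old mice it measured 8.03, 7.83, 7.55, 7.15 and 7.78 without and 8.09, 7.88 and 8.81 with a tumour. Young mice gave 8.01, 7.82 and 7.68 without and 8.66, 7.85 and 8.08 with a tumour. The groups overlapped at both ages, and old tumour-bearing replicate 3 and young tumour-bearing replicate 1 were the highest of their groups. The difference in old mice was 0.59 ± 0.26 (adjusted p = 0.487) and came to 0.31 without old tumour-bearing replicate 3. The average over the ages was 0.47 ± 0.19 (adjusted p = 0.432), and 0.22 without the 2 arrays of lowest mean correlation.

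Among the subunits of the proton pump, the smallest p for tumour belonged to Atp6ap1 in old mice and to Atp6v0d1 in young mice. Atp6ap1 encodes an accessory subunit that helps the pump assemble. It measured 8.46, 8.44 and 8.30 in young cancer-free mice and 8.69, 8.37 and 8.90 in young tumour-bearing mice. In old mice it measured 8.14, 7.93, 7.91, 7.66 and 8.36 without and 8.65, 8.52 and 8.20 with a tumour. The tumour-bearing group had the higher mean at both ages, with overlap at both. The difference was 0.46 ± 0.19 (adjusted p = 0.470) in old mice and 0.36 ± 0.14 (adjusted p = 0.421) on average.

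Atp6v0d1, a subunit of the membrane sector of the pump, had values of 7.37, 6.94 and 7.32 in young cancer-free and 5.07, 6.98 and 6.98 in young tumour-bearing mice. Old mice gave 6.88, 5.96, 7.37, 6.62 and 6.50 without and 6.60, 6.47 and 6.56 with a tumour. The value of young tumour-bearing replicate 1 was the lowest of all 14, and the other arrays of that group lay within the range of the young cancer-free mice. The difference in young mice was -0.86 ± 0.44 (adjusted p = 0.887) and came to -0.23 without that array.

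Ctsw, cathepsin W of natural killer and cytotoxic T cells, had values of 9.74, 10.08 and 9.86 in young cancer-free and 8.57, 9.29 and 9.82 in young tumour-bearing mice. Old mice gave 9.47, 9.08, 9.98, 10.52 and 9.98 without and 10.04, 9.60 and 9.43 with a tumour. The groups overlapped at both ages. The difference in young mice was -0.67 ± 0.36 (adjusted p = 0.887) and came to -0.34 without young tumour-bearing replicate 1. Markers of natural killer cells had negative tumour differences in 11 of 12 genes at either age (median -0.43 in young, -0.47 in old mice), and T cell markers in 10 of 12 genes in young mice (median -0.88) and 7 of 12 in old mice (median -0.07). No gene of either list passed the test, and their part in the Ctsw values was not tested.

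Over all members, the tumour differences had no single direction. In young mice 24 of 36 were negative (66.7%, all genes 52.8%), with a median of -0.10 against -0.02 over all tested genes. In old mice 15 of 36 were negative (41.7%, all genes 48.7%), with a median of 0.08 against 0.01. With cyclic loess scaling of the arrays the median in young mice turned to 0.02 and that in old mice was 0.12. Groups without overlap stood near the share of all genes. In young mice they were found upward for Lgmn (1 of 36, 2.78%, all genes 5.56%) and downward for Ctso, Hexa and Neu1 (3 of 36, 8.33%, all genes 7.37%). For Hexa the lowest young cancer-free value (7.5540) and the highest young tumour-bearing value (7.5537) were nearly equal. In old mice they were found upward for Lgmn and Gaa (2 of 36, 5.56%, all genes 3.11%) and downward for none (all genes 3.04%). The remaining proteases Ctsa, Ctsd and Tpp1 had negative differences at both ages, from -0.28 to -0.18 in young and from -0.19 to -0.03 in old mice, but 2 of the 3 were positive in old mice after cyclic loess. Among the 7 glycosidases and sulfatases the differences ran from -0.44 (Neu1) to 0.48 (Gaa) in young and from -0.10 to 0.55 in old mice.

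**Figure D2:**
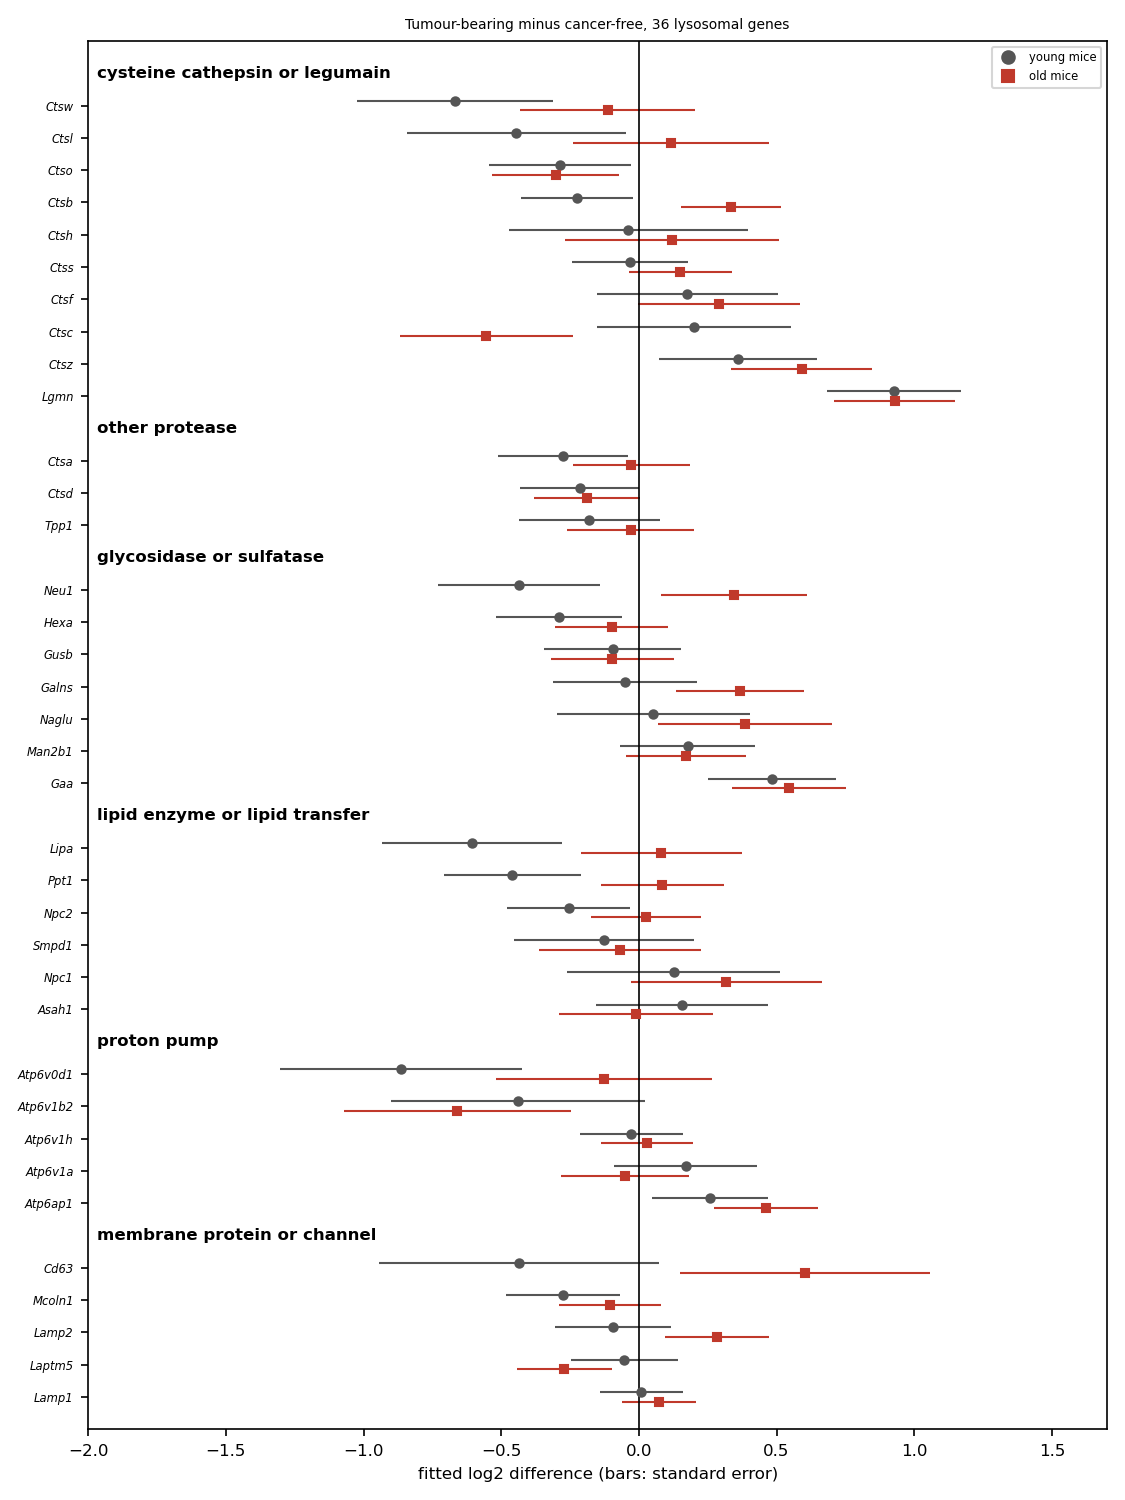
Fitted log2 difference, tumour-bearing minus cancer-free, with its standard error for the 36 tested members grouped by role, in young and in old mice. Lgmn lies farthest to the right at both ages (0.93 in each), and Atp6v0d1 in young mice (-0.86) and Atp6v1b2 in old mice (-0.66) lie farthest to the left.

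Age was compared first in mice without a tumour. Of the 36 members, 30 had lower means in old cancer-free mice (83.3%, against 55.5% of all tested genes), with a median difference of -0.18 against -0.04. The mean over the 36 members was 7.70 ± 0.04 (SD, n = 3, range 7.68 to 7.74) in young and 7.47 ± 0.09 (SD, n = 5, range 7.38 to 7.60) in old cancer-free mice, with no overlap. No such mean was taken over all tested genes or after another scaling, so this separation has no background. The size depended on the scaling: cyclic loess left 23 of 36 negative with a median of -0.07 (all genes 0.00), and centring each array on its median gave 35 of 36 and -0.25 (all genes -0.11). With the stricter floor of 5.48, the median over all tested genes moved to -0.15 and that of the members to -0.19, so that brighter genes as a whole had a negative median.

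By role, all 10 tested cysteine cathepsins and legumain had negative differences (median -0.26), and 9 of the 10 still had one after cyclic loess. The lipid enzymes and lipid transfer proteins had 5 of 6 (median -0.28), the glycosidases and sulfatases 6 of 7 (-0.18), the pump subunits 4 of 5 (-0.27) and the membrane proteins 3 of 5 (-0.01). After cyclic loess these counts came to 4 of 6, 5 of 7, 3 of 5 and 0 of 5. Genes with a second probe did not always give the same sign. For Smpd1 the second probe gave 0.06 against -0.22 for the probe used, and for Atp6v1b2 it gave 0.13 against -0.27. The second probe of Npc1 exceeded the floor on only 2 arrays.

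The member with the smallest p for age in cancer-free mice was Lipa, lysosomal acid lipase, which splits cholesteryl esters and triglycerides taken up by the cell. It measured 7.29, 6.94 and 6.59 in young and 6.10, 6.56, 5.92, 6.35 and 5.78 in old cancer-free mice. All 5 old mice lay below the 3 young ones, the only member for which these groups did not overlap (2.78%, all genes 4.40% in this direction). The difference was -0.80 ± 0.29 (1.74-fold lower, 95% interval -1.42 to -0.17, limma adjusted p = 0.586). With a tumour, Lipa measured 6.34, 5.58 and 7.09 in young and 6.20, 6.36 and 6.12 in old mice, and the old values lay inside the range of the young ones.

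Ctsl and Ctsb encode cathepsins L and B, endopeptidases with broad activity. Ctsl had values of 8.14, 7.94 and 8.90 in young and 8.36, 7.09, 7.19, 6.79 and 7.63 in old cancer-free mice. The highest old mouse, replicate 1, lay among the young ones. With a tumour, Ctsl measured 7.37, 7.64 and 8.64 in young and 7.59, 7.51 and 7.48 in old mice, also with overlap. The difference was -0.92 ± 0.36 (adjusted p = 0.618) without a tumour and -0.64 ± 0.27 (adjusted p = 0.326) averaged over both states.

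Ctsb measured 9.88, 9.55 and 9.60 in young and 9.67, 8.98, 9.36, 9.31 and 9.07 in old cancer-free mice, and 9.52, 9.60 and 9.24 in young and 9.54, 9.51 and 9.79 in old tumour-bearing mice. Groups overlapped in both comparisons, and the old mean was the lower one only without a tumour. The difference was -0.40 ± 0.18 (adjusted p = 0.650) without a tumour. Atp6ap1, given above, differed by -0.40 ± 0.19 (adjusted p = 0.650) with overlap, and by -0.26 after cyclic loess.

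In tumour-bearing mice, age gave 22 of 36 negative differences (61.1%, all genes 49.5%) with a median of -0.06, against 0.00 over all genes, and 18 of 36 after cyclic loess. Separated groups were found for Neu1, Cd63 and Ppt1 upward in old mice (3 of 36, 8.33%, all genes 5.94%) and for Ctsc downward (1 of 36, 2.78%, all genes 7.10%). Ctsc encodes cathepsin C, the dipeptidyl peptidase that activates granzymes and the serine proteases of neutrophil granules. It measured 7.46, 7.73 and 8.19 in young and 7.22, 5.72 and 7.08 in old tumour-bearing mice. Every old mouse lay below every young one, and old tumour-bearing replicate 2 lay lowest of all 14 arrays. The difference was -1.12 ± 0.35 (adjusted p = 0.315) and came to -0.65 without that array. Without a tumour the values were 7.49, 7.93 and 7.36 in young and 7.48, 7.26, 7.37, 7.31 and 6.71 in old mice, which overlapped, and the average age difference was -0.74 ± 0.24 (adjusted p = 0.207).

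Ppt1, a thioesterase that removes palmitate from proteins, measured 7.81, 8.75 and 8.95 in young and 9.04, 9.0 and 9.25 in old tumour-bearing mice. Without a tumour the values were 9.07, 9.02 and 8.80 in young and 9.16, 8.95, 8.98, 8.83 and 9.14 in old mice. The old tumour-bearing mice lay above all young tumour-bearing ones, of which replicate 1 was the lowest of all 14 arrays. The cancer-free groups overlapped. The difference was 0.59 ± 0.25 (adjusted p = 0.435) and came to 0.25 without that array.

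Cd63 encodes a tetraspanin of late endosomes, lysosomes and secretory granules. It measured 5.83, 6.23 and 6.50 in young and 7.12, 7.89 and 6.90 in old tumour-bearing mice. In cancer-free mice it measured 6.82, 6.23 and 6.81 in young and 8.06, 6.09, 5.47, 6.67 and 7.19 in old mice. The 5 old cancer-free mice spanned a wider range than both tumour-bearing groups together. The difference with a tumour was 1.12 ± 0.51 (95% interval 0.024 to 2.21, adjusted p = 0.480).

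Neu1, the sialidase that removes terminal sialic acids, measured 5.77, 5.31 and 5.43 in young and 5.84, 6.44 and 6.17 in old tumour-bearing mice. In cancer-free mice it measured 5.88, 5.93 and 6.01 in young and 5.84, 5.69, 5.28, 6.68 and 5.53 in old mice. The young tumour-bearing mice were lower than the young cancer-free and the old tumour-bearing ones without overlap, while the old cancer-free mice covered the whole range. The difference with a tumour was 0.65 ± 0.30 (adjusted p = 0.481).

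**Figure D3:**
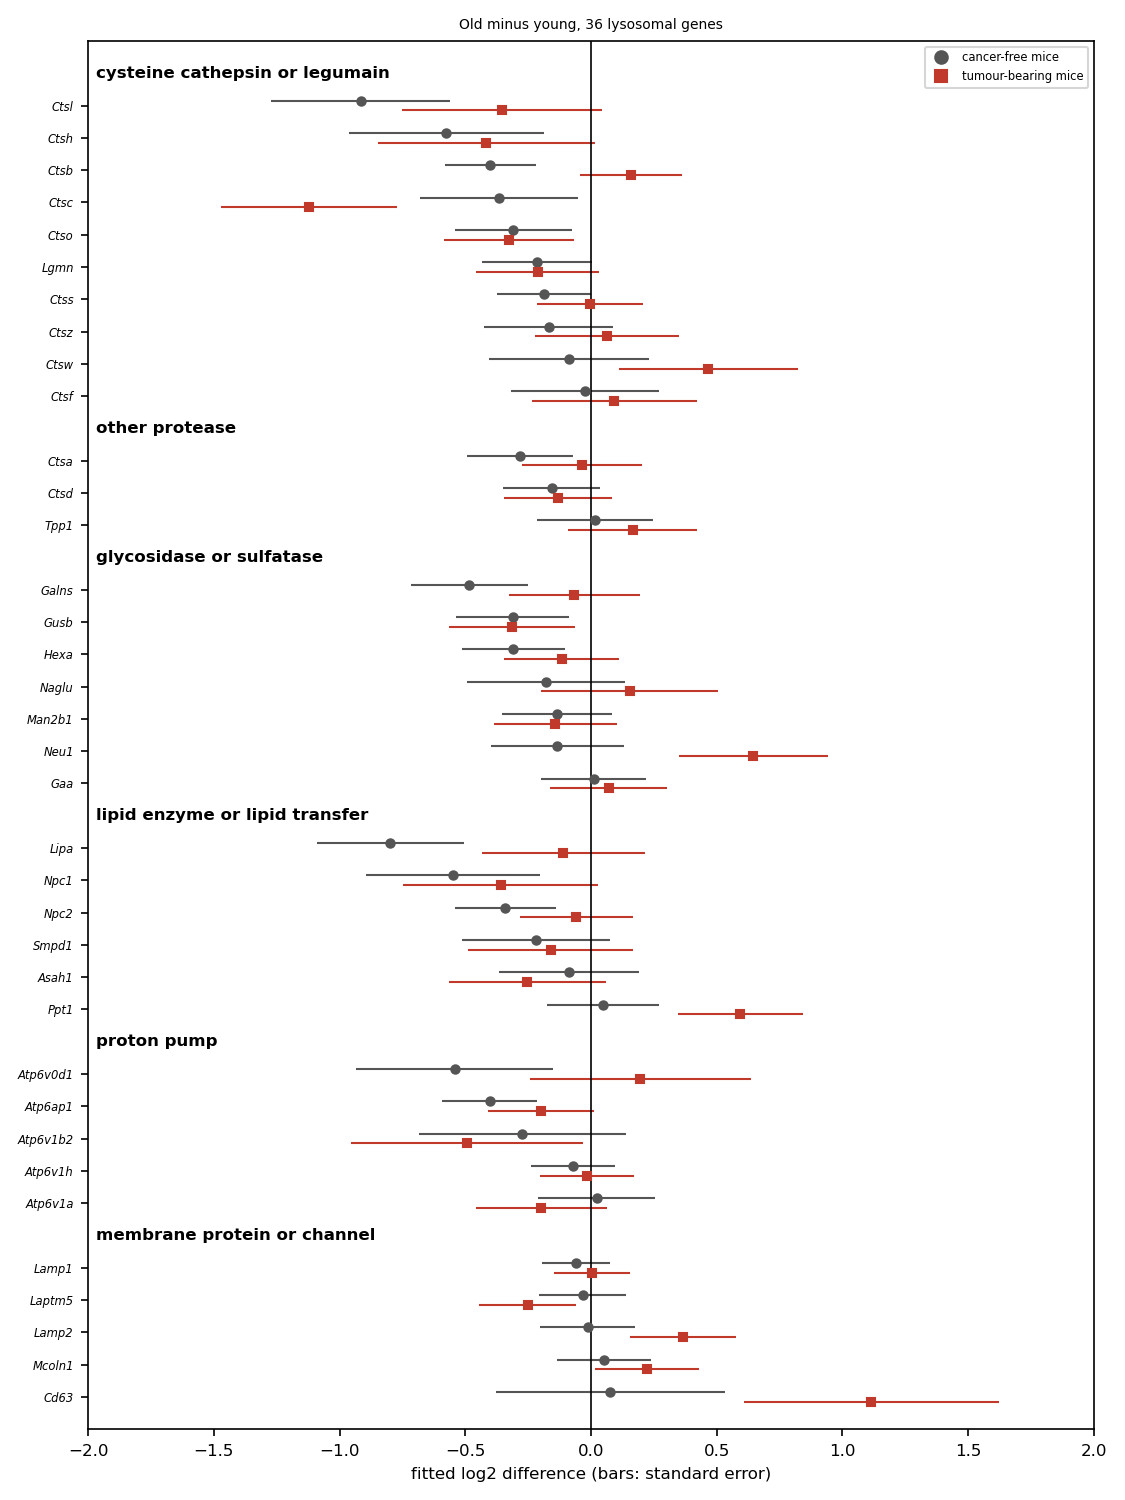
Fitted log2 difference, old minus young, with its standard error for the 36 tested members grouped by role, for mice without and with a tumour. In cancer-free mice all 10 cysteine cathepsins and legumain lie left of 0, and in tumour-bearing mice Cd63 (1.12) and Ctsc (-1.12) lie farthest out.

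Whether the tumour effect depended on age was tested directly. The difference of the tumour effects, old minus young, was positive for 28 of 36 members (77.8%, all genes 52.4%), with a median of 0.18 against 0.02, and for 25 of 36 after cyclic loess, with a median of 0.13. No member passed, and none had an unadjusted p under 0.05, against 4.42% of all genes. In simulated data this contrast recovered only 0.5% of genes given a log2 difference of 1, so it would miss that size in nearly all genes. At the same size the 4 simple contrasts recovered from 29.5% (tumour in old mice) to 41% (age without a tumour). The averages recovered 74% (tumour) and 76% (age). The 2 smallest p-values belonged to Ctsb (0.56 ± 0.27, adjusted p = 0.976) and Neu1 (0.78 ± 0.40, adjusted p = 0.976). In Ctsb the tumour difference in old mice was 0.34 ± 0.18 (adjusted p = 0.573).

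The members differed in how much they varied between mice of a group. Their median within-group SD was 0.32, against 0.34 over all tested genes. Lamp1, which encodes a major glycoprotein of the lysosomal membrane, had the smallest, 0.094, and only 0.268% of tested genes had a smaller one. Its 14 values lay between 9.81 and 10.12, and its average tumour difference was 0.040 ± 0.10 (95% interval -0.18 to 0.26). Atp6v1h, a regulatory subunit of the pump (0.19), and Laptm5, a lysosomal transmembrane protein of blood cells (0.20), followed. The largest SDs belonged to Cd63 (0.71), Atp6v1b2 (0.64), Atp6v0d1 (0.60) and Ctsh (0.59).

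Other genes of the lysosome were taken from a list of 68 that holds none of the members, and 59 had a probe of their own and 56 were tested. None passed in any contrast. For age without a tumour 43 of 56 were negative, with a median of -0.23, and after cyclic loess 37 of 56 with a median of -0.14. The 3 smallest p-values there belonged to Mitf, a transcription factor of the TFEB family (-0.69 ± 0.23), the channel gene Mcoln2 (0.62 ± 0.24) and the carboxypeptidase gene Scpep1 (-0.60 ± 0.24). For age with a tumour 30 of 56 were negative, and the smallest p-values belonged to the chloride transporter gene Clcn7 (-0.94 ± 0.33), Psap, the precursor of the saposins (-0.67 ± 0.25), and the pump subunit gene Atp6v0b (0.53 ± 0.23).

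For tumour in young mice 31 of these 56 were negative, led by the peptide transporter gene Slc15a3 (0.82 ± 0.30), the acid phosphatase gene Acp5 (-0.90 ± 0.39) and Clcn7 (0.60 ± 0.33). For tumour in old mice 22 of 56 were negative, led by Plbd2, a phospholipase B-like hydrolase (0.96 ± 0.25, limma adjusted p = 0.279), the membrane protein gene Tmem192 (1.16 ± 0.33, adjusted p = 0.317) and Atp6v0b (0.50 ± 0.20). Slc15a3 was the only one of the 56 that, like Lgmn, separated upward with tumour at both ages (all genes 0.254%). Its ranges were 3.94 to 4.18 and 4.43 to 5.56 in young and 3.78 to 4.23 and 4.30 to 5.34 in old mice, without and with a tumour.

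Markers of cell types rich in lysosomes were set beside these values. Over the 14 markers of monocytes and macrophages with a probe, of which 12 were tested, the mean level per array was 5.58 to 5.95 without and 5.70 to 5.92 with a tumour in young mice. In old mice it was 5.11 to 5.91 without and 5.08 to 5.70 with a tumour. Their age differences were negative in 10 of 12 genes without and 11 of 12 with a tumour (medians -0.38 and -0.50), and after cyclic loess in 9 and 10 of 12. Their tumour differences were positive in 7 of 12 genes in young and 5 of 12 in old mice. Cd14 stayed below the floor on all arrays and Ms4a7 failed the filter.

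Markers of plasmacytoid dendritic cells had mean levels of 7.13 to 8.21 in young and 6.04 to 7.44 in old cancer-free mice, and of 7.44 to 8.18 in young and 6.37 to 6.82 in old tumour-bearing mice. All 13 had negative age differences both without and with a tumour (medians -1.03 and -0.66). T cell markers had positive age differences in 9 of 12 genes without (median 0.24) and 10 of 12 with a tumour (median 0.98), with mean levels of 6.95 to 7.89 in young and 7.04 to 8.20 in old mice without a tumour, and of 6.40 to 7.33 and 7.48 to 7.93 with one. Natural killer cell markers had negative age differences in 8 of 12 genes without and 9 of 12 with a tumour (medians -0.23 and -0.31). No monocyte and macrophage, plasmacytoid dendritic cell, T cell or natural killer cell marker passed the test for age in either tumour state. In the average over both states 1 did, Itgam (CD11b, an integrin of myeloid cells), at -0.96 ± 0.15 (limma adjusted p = 0.0387). The part of these cells in the age differences of the members was not tested.

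Neutrophil markers were negative for age in 7 of 15 genes without (median 0.0047) and 12 of 15 with a tumour (median -0.49). Their tumour differences were positive in 10 of 15 genes in young mice (median 0.24) and 4 of 15 in old mice (median -0.14). Their mean level was 7.10 in young tumour-bearing replicate 1 and 6.11 and 6.07 in the other arrays of that group, against 6.11 to 6.49 in young cancer-free mice. In old mice it was 5.24 to 7.10 without and 5.43 to 6.02 with a tumour. Young tumour-bearing replicate 1 also had the highest Lgmn, Gaa and Ctsz and the lowest Ctsw, Atp6v0d1 and Ppt1 values of its group. The part of neutrophils in these values was not tested.

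Plasma cell markers were positive for tumour in 7 of 7 genes in old mice (median 0.39) and 5 of 7 in young mice (median 0.03). Conventional dendritic cell markers had medians of 0.06 and 0.00 for tumour in young and old mice, and B cell markers 0.00 and -0.21. Of the 7 osteoclast markers with a probe, 3 were tested, while Dcstamp and Atp6v0d2 stayed below the floor on all arrays, as Ctsk did. Of the 9 mesenchymal stromal markers with a probe, 5 were tested. Their tumour differences were positive in 4 of 5 genes at either age (medians 0.09 in young and 0.08 in old mice). Cxcl12 (4.21 to 4.87) and Col1a1 (4.05 to 4.83) exceeded the floor on all arrays, while Pdgfra, Lepr, Lum and Dcn stayed below it. Which cells carried the Lgmn signal was not tested.

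**Figure D4:**
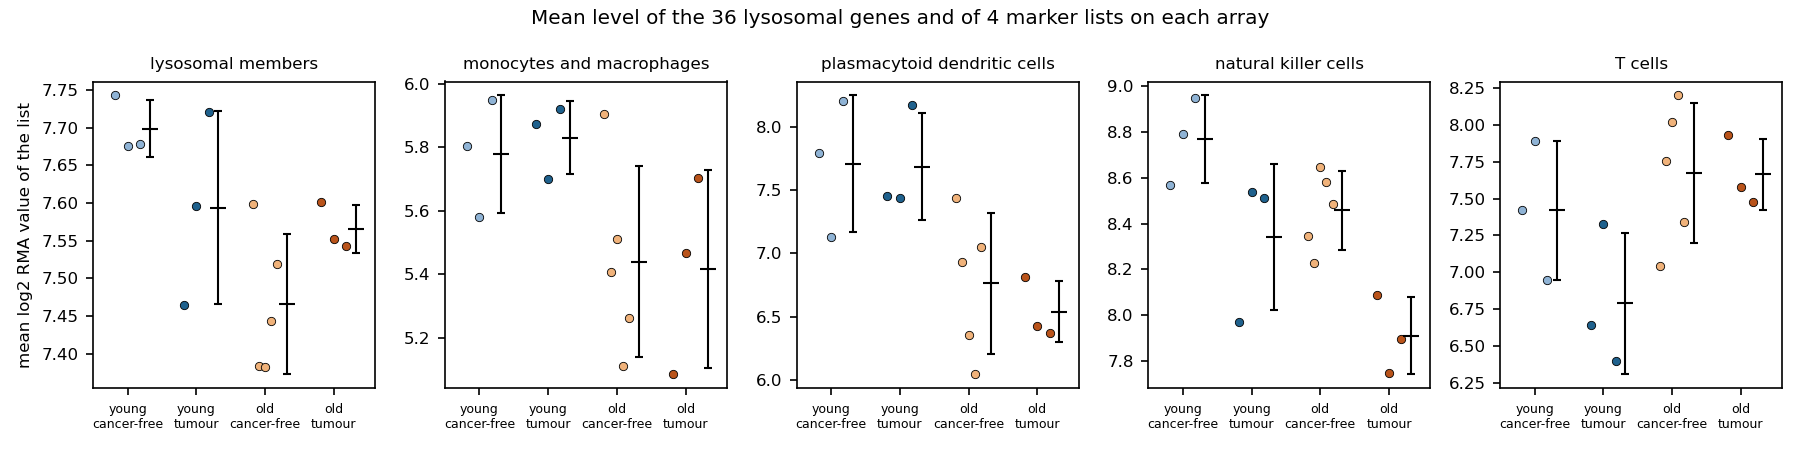
Mean log2 level per array of the 36 members and of marker lists of other cells, by group (points are mice, bars are the group mean ± SD). The members' means lie lower in old than in young cancer-free mice (7.47 against 7.70). So do those of plasmacytoid dendritic cell (6.76 against 7.71), natural killer cell (8.46 against 8.77) and monocyte and macrophage markers (5.44 against 5.78). Those of T cell markers lie higher (7.67 against 7.42).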

How the data were processed

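RNA of sorted cells was amplified as a whole transcriptome, biotin-labelled and hybridised to 14 single-colour arrays, in 4 groups. Per the submitters' processing notes, the deposited values are log2 intensities that the authors made with RMA (oligo 1.32.0, R 3.2.0). The set of arrays normalised together and the array's genome build are not given in the sources used here.

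Of 41345 probes, 23521 carried 1 gene symbol, 1814 several and 16010 none, and only the first kind was used. Symbols were matched through Entrez identifiers for 23328 probes. For 1082 genes with several probes the brightest was taken. Group means were fitted in limma 3.58.1 (R 4.3.3) without a variance trend, with 10 residual and 3.86 prior degrees of freedom, for 7 contrasts: tumour at each age, age in each tumour state, their difference and both averages. Two-sided p-values received Benjamini-Hochberg adjustment over 13805 genes, and intervals are at 95% for single genes. The fit was tested on simulated data. Members and lists were chosen with earlier results of these data known. Array-by-array values are given for the 4 members with the smallest p in each simple contrast and the 2 with the smallest p in the other 3, beside counts for the rest. Ctsk and the Slc15a3 ranges were added after their values were seen. Promoter windows and sequences are from RefSeq. Alternatives were other floors, scalings, variance models, array weights, probe means, arrays left out, a covariate and a replicate block. P-values measure the spread between mice.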

Additional observations from a re-analysis of the deposited data

Results flagged for a closer look

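Of the 36 members examined over the 5 old cancer-free mice, 2 had an array far from the rest by Dixon's criterion, which chance gives about 1 time in 20. For Ctsc, old cancer-free replicate 5 was the lowest at 6.71, with the nearest array at 7.26 and the highest at 7.48 (ratio 0.715). Without that array the average age difference of Ctsc was -0.68, against -0.74 with it. For Lamp1, old cancer-free replicate 4 was the highest at 10.12, with the nearest at 9.88 and the lowest at 9.81 (ratio 0.779), a small gap in a gene of small spread.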

How the results depend on the processing

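Over 25 alternatives (14 that leave out 1 array each and 11 others), or 24 for the interaction and the averages, which have no fit of only the groups compared, 0 members passed the test in any contrast. The differences of the members given array by array, in the contrasts for which they were named by their p, kept their sign. The spread between replicates of the arrays' median over members was 0.17, which is larger than most of the median differences themselves. In each alternative the median over members moved by less than that. Its sign turned where it was near 0: cyclic loess gave 0.02 for tumour in young mice and 0.07 for the tumour average, and the age median with a tumour was 0.01 without young tumour-bearing replicate 3. The tumour average was also positive without young tumour-bearing replicate 1 (0.03), with the correlation covariate (0.01), with the block (0.01) and without a floor (0.00). With the replicate number as a block, 0 members were called in any contrast, the average tumour difference of Lgmn was 0.87 and the median age difference without a tumour was -0.21. Mice of different groups that share a number had correlations of deviations from -0.08 to 0.09. For number 3 all of them were positive, from 0.02 to 0.09. The labels do not say what a shared number means, so whether it pairs mice is unknown. Without the 2 arrays of lowest mean correlation, Gaa came to 0.33 for the tumour average and Ppt1 to 0.17 for age with a tumour. With 3 mice in most groups, a difference that misses the threshold is not shown to be absent.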
